A study of Mus musculus with 8 samples.

Results

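Sfrp5 Sftpc cells are tumour cells of a mouse small cell lung cancer line that carried transcripts of both Sfrp5 and Sftpc. They were 9579 of the 38460 cells deposited and 27.6% of the 34719 tumour cells. A cell was kept where 500 or more genes were detected and mitochondrial molecules did not exceed 10%, and was called a tumour cell when eGFP and Mycl together made up at least 0.2% of its unique molecular identifiers (UMIs, each 1 captured RNA molecule). A member also had no UMI of Tfap2a, fewer than 3 UMIs over Htr3a, Isl1 and Igfbpl1, and at least 1 UMI each of Sfrp5 and Sftpc. The conditions on Tfap2a, Htr3a, Isl1 and Igfbpl1 are called the gates below. Members were chosen from their measured values, so the levels of these 8 genes describe the choice and were not tested.

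The cells came from allografts of N2N1G, a cultured small cell lung cancer line with an eGFP transcript, harvested 3 weeks after transplantation of an equal number of cells. There were 2 brain allografts and 3 subcutaneous allografts, both made by direct injection, and 3 liver allografts made through the tail vein, so that route and site cannot be told apart in comparisons with liver. All groups share the same cell line, and the labels give no host strain, age or sex and no untransplanted cells. Bulk tumours were dissociated, healthy cells were sorted, and 3' RNA libraries were made in droplets. The labels name separate allografts but not separate animals, so p-values measure the spread between these libraries.

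The libraries held 3742 to 6707 cells each. Brain replicates 1 and 2 gave 299 and 407 members. Liver gave 1782, 1853 and 1689 members and subcutaneous tumours 490, 1636 and 1423. Doublets were not removed here. Of 37556 distinct barcodes, 882 occurred in 2 or more libraries, and 52 were members in 2 or more. Host myeloid cells, which should lack both genes, give the background of free RNA. In brain replicate 1, 1.79% of 838 myeloid cells (median 4232 UMIs) had a Sfrp5 UMI and 3.70% had a Sftpc UMI. The tumour cells of that library (median 7971 UMIs) had them in 26.5% and 45.7% of cells. In liver replicate 2, 6.12% of 49 myeloid cells (95% exact interval 1.28 to 16.9; median 2181 UMIs) had a Sfrp5 UMI and 8.16% (2.27 to 19.6) had a Sftpc UMI. Tumour cells there (median 10542 UMIs) had them in 70.4% and 68.7% of cells. No myeloid cell of that library had both genes, while 3 of the 838 in brain replicate 1 did (0.358%). The other liver libraries held 7 and 10 myeloid cells, too few to give a background.

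Sfrp5 encodes a secreted frizzled-related protein that binds Wnt ligands and antagonises their signalling. Sftpc encodes surfactant protein C, the membrane-inserted surfactant peptide made by alveolar type 2 cells of the lung. Calb1 encodes calbindin, a calcium buffer of neurons, Kcnh3 a voltage-gated potassium channel of the brain, and Kcnk2 a leak potassium channel. Small cell lung cancer is a neuroendocrine tumour in which Mycl is often amplified. By gene identifier on GRCm38, Sfrp5 lies at chr19:42197971-42202252 on the minus strand and Sftpc at chr14:70520949-70524081 on the minus strand. Calb1 lies at chr4:15881264-15908064, Kcnh3 at chr15:99224861-99242817 and Kcnk2 at chr1:189207930-189402273. All 5 are protein-coding genes, and 3' libraries count their transcripts without showing which start site or isoform was used.

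The 250 bases before the start of Sfrp5 are shown because this gene sets the population apart. They were read 5' to 3' on the minus strand from the RefSeq promoter table of GRCm38.p6, chr19:42202253-42202502, which has no entry for Sftpc, Calb1 or Kcnh3.
Sfrp5: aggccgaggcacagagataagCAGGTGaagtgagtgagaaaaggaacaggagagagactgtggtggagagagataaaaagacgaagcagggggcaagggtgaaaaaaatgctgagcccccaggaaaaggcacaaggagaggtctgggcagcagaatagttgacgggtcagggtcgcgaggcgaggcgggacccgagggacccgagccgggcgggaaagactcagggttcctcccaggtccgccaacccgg
The capitals mark the only match to the 2 E-box motifs searched on both strands, CAGCTG and CAGGTG, which do not overlap each other there. Of the 32851 promoter windows of this length in the table, 4271 held CAGCTG and 5657 (17.2%) held CAGGTG or its reverse complement. A match is a description of the letters and not a shown binding site.

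Levels are given as CPM, the UMIs of a gene summed over a class of cells and scaled to the same total for every class, on which one gene is compared between classes. Within members, Sfrp5 stood at 204 and 211 CPM in brain, 276, 296 and 240 in liver, and 229, 217 and 223 in subcutaneous libraries. Sftpc stood at 518 and 482 CPM in brain, 388, 394 and 506 in liver, and 446, 487 and 479 in subcutaneous libraries. The rule requires both genes, so these levels describe the choice of members. At the edge of the rule, cells with exactly 1 UMI of each gene had Calb1 at 20.4 to 142 CPM. Cells with 1 UMI of Sfrp5 and none of Sftpc had Calb1 at 12.6 to 115 CPM, and those with 1 of Sftpc and none of Sfrp5 had 16.3 to 140 CPM.

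Calb1, Kcnh3 and Kcnk2, which the rule did not use but which named the population, were compared in members and depth-matched others as a description. Each member was paired with another gated tumour cell of its own library whose UMI total lay within 10%, which matched 7864 members (82.1%). Calb1 was at 71.6 against 17.8 and 54.2 against 18.8 CPM in brain. In liver it was at 113 against 86.1, 134 against 93.2 and 190 against 134 CPM. In subcutaneous libraries it was at 61.4 against 15.3, 83.9 against 52.2 and 81.8 against 63.6 CPM. Members were therefore higher in every pair, by 1.29-fold to 4.03-fold, and the libraries with the fewest members, brain 1 and 2 and subcutaneous 1, had the 3 largest folds. Kcnh3 was 1.47-fold to 2.81-fold and Kcnk2 1.23-fold to 2.96-fold higher in members. When each cell's UMIs were divided at random into 2 equal parts, with members chosen in one part and levels read in the other, Sfrp5 was still 1.91-fold to 7.05-fold higher. In that reading Sftpc was 1.76-fold to 4.30-fold, Calb1 1.22-fold to 2.92-fold, Kcnh3 1.27-fold to 2.24-fold and Kcnk2 1.15-fold to 1.98-fold higher over the 8 libraries.

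**Figure D1:**
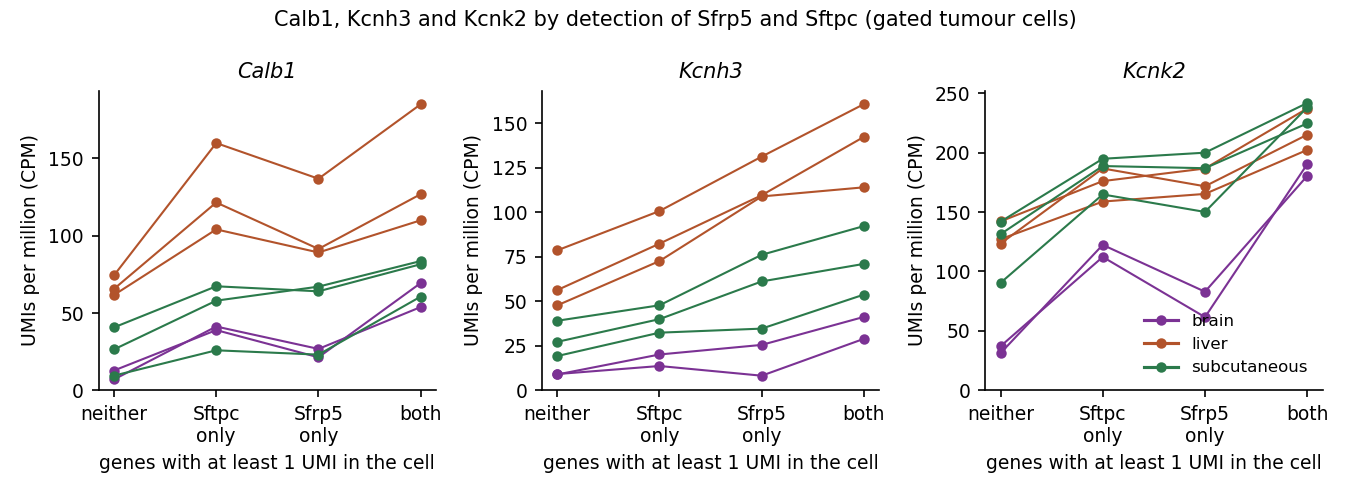
Level of Calb1, Kcnh3 and Kcnk2 (CPM, linear axes) in gated tumour cells with neither Sfrp5 nor Sftpc, only Sftpc, only Sfrp5, or both; each line is 1 library, coloured by site. The class with both genes (the members) is the highest of the 4 in every library for all 3 genes.

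In the median over the 8 libraries, cells with a UMI of only 1 of the 2 genes were intermediate for Calb1, Kcnh3 and Kcnk2. This did not hold in every library. The lowest Kcnh3 level with Sfrp5 alone, 8.21 CPM, was below the lowest with neither gene, 8.90 CPM. Calb1 in cells with neither gene ran from 7.06 CPM in brain replicate 2 to 74.4 in liver replicate 3. With Sftpc alone it ran from 25.9 CPM in subcutaneous replicate 1 to 160 in liver replicate 3, and with Sfrp5 alone from 21.4 in brain replicate 1 to 137 in liver replicate 3. These classes also differed in depth: members had medians of 9918 to 11438 UMIs and gated others 6761 to 9098, and the part of depth in the unmatched levels was not tested. After thinning each cell to 3000 UMIs, both genes occurred together more often than the product of their separate shares in all 8 libraries. The ratio was 1.58 and 1.70 in brain, 1.12, 1.11 and 1.16 in liver, and 2.10, 1.27 and 1.23 in subcutaneous libraries. Both genes belong to the rule, so these ratios are a description and were not tested.

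Sfrp5 Sftpc cells made up a larger share of the tumour cells in liver than in the other sites. Without thinning they were 12.4% and 10.0% of tumour cells in brain, 43.3%, 44.2% and 35.8% in liver, and 11.8%, 26.1% and 29.7% in subcutaneous libraries. A gate of 1 UMI takes more cells from deeper libraries, so each cell was also thinned to 3000 UMIs, leaving out 48 to 180 shallower tumour cells per library. The shares were then 6.10% (95% exact binomial interval 5.15 to 7.17) and 4.84% (4.19 to 5.55) in brain. In liver they were 19.9% (18.6 to 21.1), 19.7% (18.5 to 21.0) and 16.7% (15.6 to 17.8). In subcutaneous libraries they were 5.42% (4.74 to 6.17), 11.03% (10.3 to 11.8) and 12.02% (11.1 to 12.99). These intervals cover counting error only.

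The 3 liver libraries lay above all others, and subcutaneous replicate 1 lay between the 2 brain libraries. Brain averaged 5.47% ± 0.895 (SD, n = 2). Liver averaged 18.8% ± 1.78 and subcutaneous tumours 9.49% ± 3.56 (SD, n = 3 for each). A two-sided exact permutation test of the F statistic (18.6) over 560 assignments of the 8 libraries gave p = 0.0143. For pairs of sites the exact permutation p was 0.1 for brain against liver, 0.3 for brain against subcutaneous and 0.1 for liver against subcutaneous, where 0.1 is the smallest that groups of this size allow. Of the rule's parts, the thinned share of cells with Sfrp5 averaged 12.5% in brain, 35.8% in liver and 18.0% in subcutaneous libraries. The share with Sftpc averaged 27.7%, 47.1% and 36.4%, and the share passing the gates 87.9%, 94.4% and 87.8%. These describe the rule, and the part of each in the difference between sites was not tested. Subcutaneous replicate 1 had the lowest share passing the gates, 79.0%, against 87.6% to 95.3% in the other 7 libraries.

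**Figure D2:**
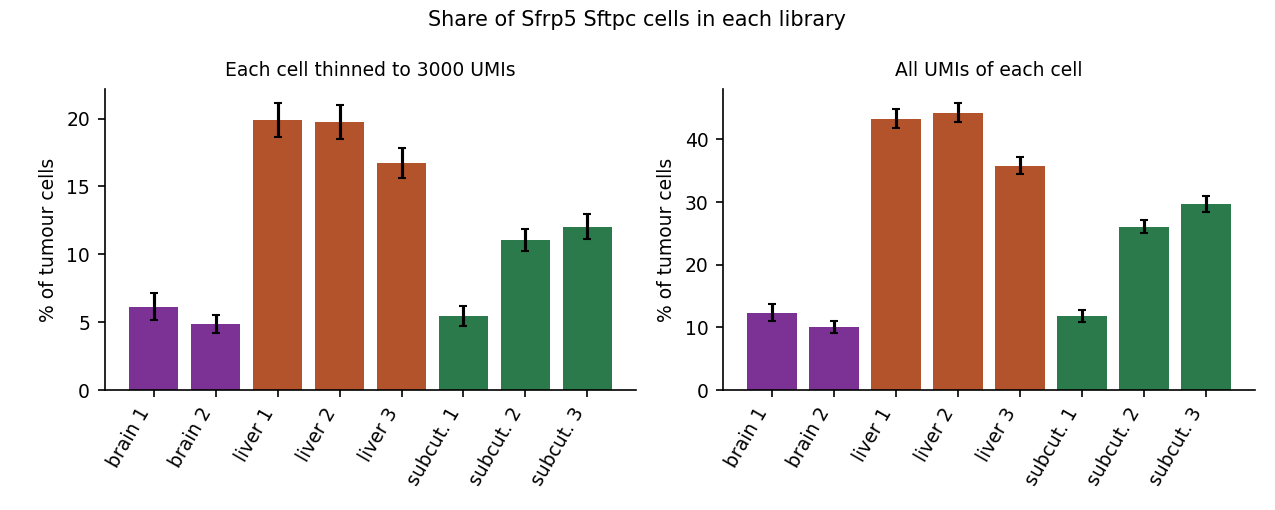
Share of tumour cells that are Sfrp5 Sftpc cells in each library, with every cell thinned to 3000 UMIs (left) and with all UMIs (right); bars are single libraries and whiskers are 95% exact binomial intervals. The liver libraries are the 3 highest in both panels, at 16.7% to 19.9% thinned and 35.8% to 44.2% unthinned.

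The transcriptome of members was then compared with that of the matched other cells of the same library, leaving out the rule's genes and the 3 other label genes. Members had more transcripts of Grp, Tex14, Hes6, Uchl1 and Tubb3, and fewer of Pcsk1, Nefl, mitotic genes, hypoxia genes, En1 and Hoxd genes. Neuroendocrine genes passed in both directions, 7 higher and 7 lower of 23 tested. With edgeR's quasi-likelihood test and the library as a block, 3171 of 11544 genes passed a Benjamini-Hochberg adjusted p of 0.05 (27.5%), 1521 higher (13.2%) and 1650 lower (14.3%). Most differences were small: 182 passed with at least a 2-fold change, 7 of them higher and 175 lower. Matched members were up to about 10% deeper than their partners in liver (median 9847 against 8952 UMIs in replicate 1), so depth was not fully levelled there. With every cell thinned to 3000 UMIs, 1374 genes passed, and Grp and Tex14 were not among them.

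The 12 named genes that were higher in members, like the 12 lower ones, were chosen for having 1 direction in all 8 libraries. Smoc2, a secreted calcium-binding matrix protein, was at 11.2 against 2.39 and 23.5 against 4.48 CPM in brain. In liver Smoc2 was at 13.9 against 7.39, 20.8 against 12.1 and 16.7 against 9.58 CPM, and in subcutaneous libraries at 10.53 against 4.23, 7.65 against 3.65 and 13.5 against 5.24 CPM. Members were higher throughout, by 1.18 ± 0.15 on the log2 scale (SE throughout; edgeR adjusted p = 0.000141). Tex14, known from the intercellular bridges of germ cells, was at 68.9 to 84.6 CPM in members against 17.7 to 49.8 in matched others (log2 fold change 1.04 ± 0.21, edgeR adjusted p = 0.00958). The ranges of members and others did not overlap for Tex14. Grp, the gastrin-releasing peptide of pulmonary neuroendocrine cells, was at 25.1 and 29.1 CPM in brain, 34.5, 27.8 and 32.0 in liver, and 45.8, 48.4 and 47.6 in subcutaneous members. Its matched others were at 11.9 and 8.07, then 21.5, 19.97 and 21.8, then 14.97, 29.3 and 28.0 CPM (log2 fold change 0.87 ± 0.14, edgeR adjusted p = 0.00158).

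The small heat shock protein Cryab rose by 0.80 ± 0.15 on the log2 scale (edgeR adjusted p = 0.0055), from 37.2 to 113 CPM in others to 86.5 to 168 in members. Mfsd2a, a transporter of lysophospholipids, rose by 0.76 ± 0.20 (edgeR adjusted p = 0.0261). This call was lost without subcutaneous replicate 1 (adjusted p = 0.0619, log2 fold change 0.68). Mfsd2a, at chr4:122946850-122961188, lies near Mycl, at chr4:122995652-123002485, which is a gene of the rule. Mycl was 1.33-fold to 2.31-fold higher in matched members than in matched others, and its relation to Mfsd2a was not tested. The dopamine receptor gene Drd4 and Nr0b2, a nuclear receptor that lacks a DNA-binding domain, each rose by 0.75 on the log2 scale. BC034090, Fam19a5, Mslnl, Fam89a and Tmem266 complete the 12, with log2 fold changes of 0.75 to 0.87. Among cells with no G2/M UMI the calls of BC034090, Drd4, Fam19a5, Mfsd2a, Mslnl, Nr0b2 and Smoc2 were lost, and among thinned cells those of Grp, Mfsd2a and Tex14. Without the library as a block 16 of the 24 named genes lost their call. Among the higher genes these were BC034090, Cryab, Fam19a5, Mfsd2a, Mslnl and Tmem266. Among the lower genes they were Clca3b, Des, Dnajc12, Edn3, En1, Foxd1, Hoxd11, S100a6, Selenbp1 and Tm4sf1.

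The 12 named genes that were lower in members included En1. En1, a homeobox factor of the embryonic midbrain and hindbrain, was at 13.9 against 78.2 and 17.2 against 73.1 CPM in brain. In liver En1 was at 0.916 against 5.39, 0.894 against 3.71 and 0.205 against 2.97 CPM, and in subcutaneous libraries at 3.16 against 32.8, 0.353 against 2.37 and 0.502 against 2.49 CPM. Members were lower in every pair, although brain members exceeded the liver others (log2 fold change -2.47 ± 0.15, edgeR adjusted p = 1.04e-07). The homeobox gene Hoxd11 (-2.41 ± 0.15), the forkhead gene Foxd1 (-2.24 ± 0.17) and the endothelin gene Edn3 (-2.29 ± 0.17) were also lower. All 5 tested genes of a list built on En1 (En1, Des, Hoxd9, Hoxd10 and Hoxd11) fell, with a median of -2.41 beside -0.01 for all genes tested, of which 14.3% were lower. That list was chosen with earlier results of these data known and is not independent evidence of its direction.

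Tm4sf1, a membrane protein of the tetraspanin-like family, had the lowest log2 fold change of the named genes, -3.11 ± 0.12 (edgeR adjusted p = 1.92e-09). It was at 8.48 against 100 and 22.2 against 147 CPM in brain, and at 0.376 to 3.86 against 2.75 to 43.0 CPM in the other 6 libraries. Des, the intermediate filament desmin, fell by 2.29 ± 0.10 on the log2 scale (edgeR adjusted p = 5.43e-09). The tight junction gene Cldn7 fell by 2.02 ± 0.10, the calcium-binding S100a6 by 2.18 ± 0.14 and the myelin gene Pmp22 by 1.58 ± 0.13. Clca3b, Selenbp1 and Dnajc12 fell by 1.68 to 1.86. In the plot of named genes, Tex14, Grp, BC034090, Cryab and Mfsd2a differed most in the brain libraries and subcutaneous replicate 1. Not all higher genes did so: Drd4 differed least in subcutaneous replicate 1.

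**Figure D3:**
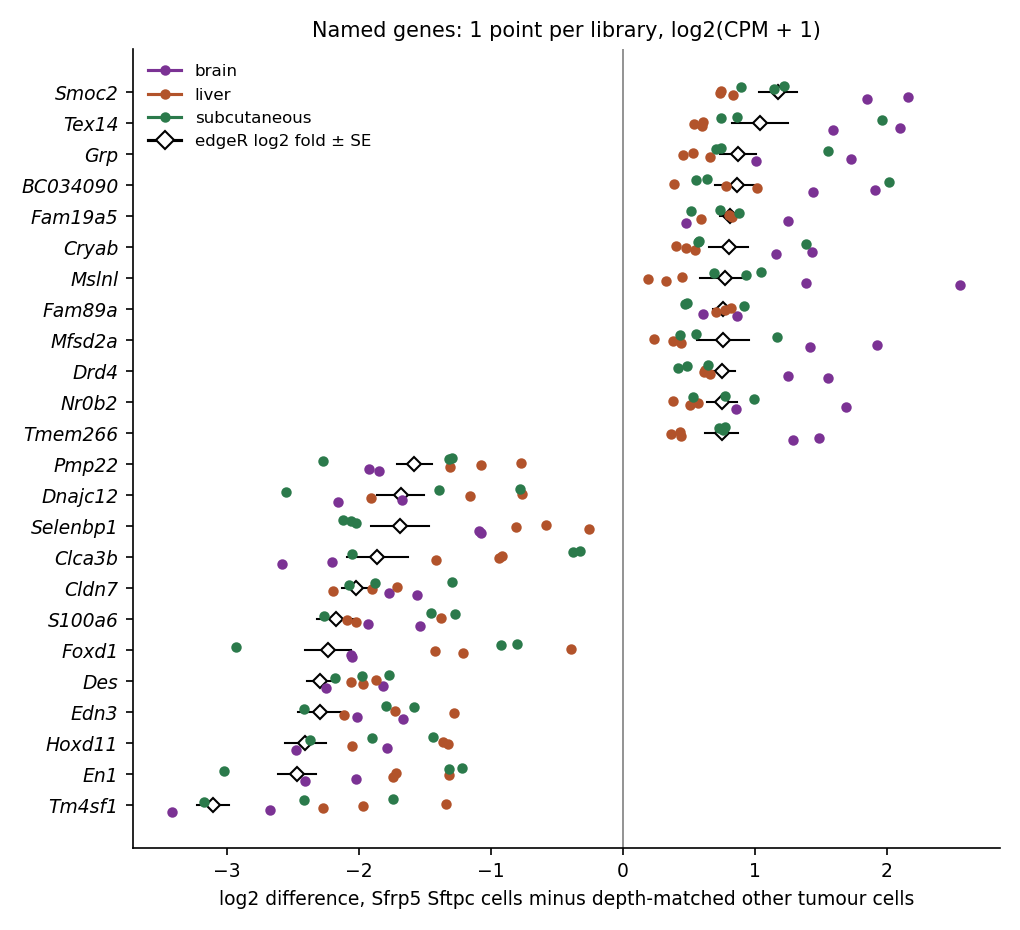
Log2 difference between Sfrp5 Sftpc cells and matched other tumour cells for the 24 named genes; points are single libraries on log2(CPM + 1), diamonds and lines are the edgeR log2 fold change ± SE. The genes were chosen for having all 8 points on the same side of 0; log2 fold changes ran from 1.18 for Smoc2 to -3.11 for Tm4sf1.

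Mitotic genes were lower in members throughout. All 20 tested genes of a G2/M list fell, with a median log2 fold change of -0.66, where 14.3% of all genes tested were lower. Ndc80, a kinetochore subunit, fell by 0.77 ± 0.05 (edgeR adjusted p = 2.82e-07) and Birc5, a chromosomal passenger protein, by 0.63 ± 0.04 (edgeR adjusted p = 3.02e-07). After thinning to 3000 UMIs, cells with at least 4 UMIs over the list were 52.1% of members and 61.5% of matched others in brain replicate 1, and 45.4% and 66.7% in brain replicate 2. They were 44.1% and 59.4%, 44.9% and 61.4%, and 47.9% and 60.5% in liver. They were 43.8% and 57.9%, 38.7% and 53.1%, and 40.6% and 58.7% in subcutaneous libraries. The share was lower in members in 8 of 8 libraries, at 44.7% ± 4.13 against 59.9% ± 3.83 (SD, n = 8 each), a mean difference of -15.2 points. A two-sided exact permutation test by 256 sign assignments gave p = 0.0078, the smallest they can give. Against all other tumour cells the difference was -9.93 points.

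For the S phase list the share of cells with at least 4 UMIs went the other way, at 92.3% ± 2.90 in members and 89.2% ± 3.79 in matched others (SD, n = 8 each). It was higher by 3.12 points and in 7 of 8 libraries (two-sided exact permutation p = 0.0156). Most cells of both classes passed this cut, so it sets few cells apart. Among single S phase genes 3 of 18 tested were higher and 4 lower, with a median of -0.04. Among all genes tested 13.2% were higher and 14.3% lower. The 4 lower were Cdc45 (-0.39), Rrm2 (-0.41), Rrm1 (-0.25) and Cdc6 (-0.29), each lower in 8 libraries. Mcm6 (0.10) and Dut (0.09) were higher, each in 6 libraries. Among 627 matched pairs with no UMI of the G2/M list, 18 to 146 per library, 212 genes passed, 97 higher and 115 lower. That comparison holds fewer cells and UMIs, and the part of cycling in the full comparison was not tested.

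Hypoxia genes were lower in members, most of all in subcutaneous tumours. Of 18 tested genes of the list, 15 fell and none rose, with a median of -0.60. Among all genes tested 14.3% were lower and 13.2% higher. P4ha1, a collagen prolyl hydroxylase subunit, fell by 0.93 ± 0.13 (edgeR adjusted p = 0.00068), Vegfa, the angiogenic growth factor, by 0.71 ± 0.14 (edgeR adjusted p = 0.00389) and the glycolytic Pgk1 by 0.39 ± 0.10 (edgeR adjusted p = 0.019). The summed level of the list in matched members was 91.1% and 98.5% of that in others in brain, 86.8%, 94.0% and 91.8% in liver, and 62.0%, 63.6% and 61.6% in subcutaneous libraries. The 3 subcutaneous libraries thus stood apart from the other 5. Without the brain libraries and subcutaneous replicate 1, 12 of 19 tested genes fell, and without any 1 library 11 to 16 fell. Among all genes tested, 15.6% were lower in the first case and 11.7% to 13.9% in the second. Without the library as a block none passed.

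Among stress genes more fell than rose, beside 13.2% higher and 14.3% lower among all genes tested. Of 19 genes of the unfolded protein and amino acid stress response, 8 fell and 1 rose, with Ddit3, a transcription factor of that response, falling by 0.81 ± 0.09 (edgeR adjusted p = 4.08e-05). Of 17 immediate early and heat shock genes, 7 fell and 1 rose, with a median of -0.42, and Klf4 fell by 0.79 ± 0.09 (edgeR adjusted p = 2.37e-05). Of 9 tested interferon genes, 3 fell and 1 rose. Their summed level in members was 35.8% and 40.4% of that in others in brain and 85.3% to 99.2% elsewhere. In brain replicate 1 the macrophage and microglia list, 15 genes, was at 314 CPM in matched members and 1104 CPM in matched others, and in replicate 2 at 96.2 and 233 CPM. The part of these host transcripts in the interferon result was not tested.

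Neuroendocrine genes went both ways. Of 23 tested, 7 rose and 7 fell, with a median of 0.03, beside 13.2% higher and 14.3% lower among all genes tested, shares that also serve for the axon and transcription factor lists. The Notch antagonist Hes6 rose from 551 ± 49.0 to 674 ± 55.6 CPM (SD, n = 8 libraries; log2 fold change 0.33 ± 0.03, edgeR adjusted p = 2.79e-06). The ubiquitin hydrolase Uchl1 rose by 0.40 ± 0.06 and the synaptic complexin Cplx2 by 0.38 ± 0.04, each in 8 of 8 libraries. Pcsk1, a protease that cleaves prohormones, fell by 1.55 ± 0.15 (edgeR adjusted p = 7.51e-05). Of 16 axon and neuronal cytoskeleton genes, 5 rose and 5 fell. The neuronal tubulin Tubb3 rose by 0.43 ± 0.05 and the neurofilament Nefl fell by 1.24 ± 0.13. Of 27 lung and small cell transcription factors, 5 rose and 11 fell, among them Sox4, higher by 0.34 ± 0.05, and the epithelial factors Elf3 and Sox9, with log2 fold changes of -1.19 ± 0.08 and -0.61 ± 0.08.

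Most genes of alveolar type 2 cells were too low to test in these cells. Of 23 genes in that list, without Sftpc, 7 were tested, and 1 rose and 2 fell, beside 27.5% of all genes tested that passed. The surfactant genes Sftpb and Sftpa1 had no UMI in brain members, Sftpb none in liver members and Sftpa1 none in subcutaneous members. Sftpd had none in members of any site. Nkx2-1, the lung lineage factor that acts on the Sftpc promoter, was present at 180 ± 22.7 CPM in members and 206 ± 35.5 in others, a fall of 0.14 ± 0.03 on the log2 scale (edgeR adjusted p = 0.00609). None of the 10 club cell genes was abundant enough to test. Of 8 tested genes for surfactant protein handling, 1 fell and none rose.

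Wnt genes passed in both directions or not at all, by list. Of 18 Wnt antagonists 3 were tested and none passed (the list leaves out Sfrp5); Sfrp1, a related antagonist, was at 71.2 ± 7.17 CPM in members and 57.7 ± 14.9 in others (edgeR adjusted p = 0.0567). None of 9 tested Wnt receptor genes passed, and of 6 tested Wnt targets 1 rose and 2 fell. Of 3 tested Wnt ligands 1 rose and 1 fell. With so few genes tested, these counts are not set apart from the 27.5% of all genes that passed. Lef1, a nuclear effector of Wnt signalling, rose by 0.22 ± 0.06. Of 33 other potassium channel genes 4 rose and 2 fell, beside 13.2% higher and 14.3% lower among all genes tested.

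**Figure D4:**
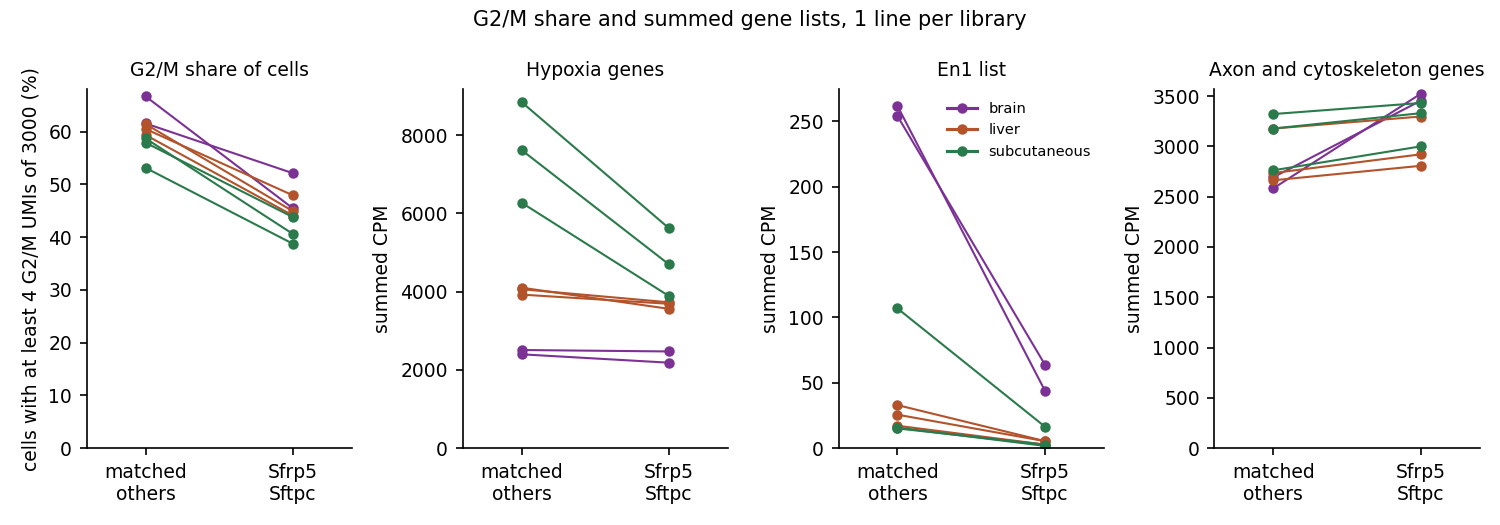
Share of cells with at least 4 G2/M UMIs after thinning to 3000 UMIs, and summed CPM of the hypoxia, En1 and axon lists, in matched others and Sfrp5 Sftpc cells; each line joins the 2 classes of 1 library. The G2/M share falls in all 8 libraries, and the hypoxia sum falls to 61.6% to 63.6% of that in others in the subcutaneous libraries.

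Members were next compared between sites. Brain members differed from liver members in 745 of 12518 genes (5.95%), 486 higher (3.88%) and 259 lower (2.07%) in brain, and from subcutaneous members in 712 (5.69%), 446 higher (3.56%) and 266 lower (2.12%). Liver and subcutaneous members differed in 233 genes (1.86%), 93 higher (0.743%) and 140 lower (1.12%) in liver. With every cell thinned to 3000 UMIs the counts were 112, 103 and 105, so the larger number for the brain comparisons was not kept. These are edgeR tests on the summed UMIs of members with 2, 3 and 3 libraries, and the comparisons share libraries. The counts rest on single libraries: brain against liver gave 227 and 262 without brain replicate 1 or 2, and 496 and 478 without liver replicate 1 or 2. Brain against subcutaneous gave 169 and 127 without brain replicate 1 or 2, and 1466, 267 and 252 without subcutaneous replicate 1, 2 or 3. Liver against subcutaneous gave 124 and 64 without liver replicate 1 or 2, and 446, 49 and 71 without subcutaneous replicate 1, 2 or 3.

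The label genes Kcnh3 and Calb1 differed between sites, and this was not particular to members. In matched others, not tested between sites, Kcnh3 was at 9.90 and 16.4 CPM in brain and 107, 87.8 and 76.5 in liver. It was at 27.8, 42.8 and 51.1 CPM in subcutaneous others. Calb1 in matched others was at 17.8 and 18.8 CPM in brain, 86.1, 93.2 and 134 in liver, and 15.3, 52.2 and 63.6 in subcutaneous libraries. Kcnh3 was at 28.9 and 41.2 CPM in brain members, 161, 142 and 114 in liver members, and 53.7, 71.0 and 92.2 in subcutaneous members. The sites did not overlap in any pair, with log2 fold changes of -2.02 ± 0.24 for brain against liver (edgeR adjusted p = 0.000538), -1.02 ± 0.24 for brain against subcutaneous (edgeR adjusted p = 0.0298) and 1.00 ± 0.18 for liver against subcutaneous (edgeR adjusted p = 0.018). Calb1 was at 69.4 and 53.9 CPM in brain, 110, 127 and 185 in liver, and 60.6, 83.6 and 81.6 in subcutaneous members. Liver was above both other sites (edgeR adjusted p = 0.00304 and 0.0133), and brain and subcutaneous members overlapped (log2 fold change -0.29 ± 0.20, edgeR adjusted p = 0.445). Kcnk2, at 180 to 242 CPM in the 8 libraries, did not pass in any pair (edgeR adjusted p = 0.0997 to 0.905).

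Brain members had more transcripts of Apoe, Phldb2 and Pcsk1 than liver members. Apoe, a lipid carrier made by glia and macrophages, was at 159 and 80.7 CPM in brain members, 6.38, 7.56 and 4.97 in liver members, and 14.5, 5.08 and 5.64 in subcutaneous members. Its log2 fold change against liver was 4.17 ± 0.46 (edgeR adjusted p = 0.00239). Phldb2 was at 42.7 and 32.9 CPM in brain members, 4.71, 4.31 and 5.31 in liver members, and 15.2, 9.11 and 8.79 in subcutaneous members (log2 fold change against liver 2.93 ± 0.24, edgeR adjusted p = 2.63e-05). Host markers moved in the same way. A list of 10 glial genes summed to 203 to 232 CPM in brain members and 42.8 to 51.8 CPM in the other sites, with Gfap at 19.0 and 11.6 CPM in brain and at 0 in the liver libraries. The macrophage and microglia list summed to 94.7 to 316 CPM in brain members and 24.6 to 62.0 CPM elsewhere. The part of host RNA in these differences was not tested.

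Pcsk1 was at 29.9 and 30.1 CPM in brain members and 4.09 to 7.28 CPM in the other libraries (log2 fold change against liver 2.21 ± 0.20, edgeR adjusted p = 5.41e-05). This was not particular to members. In matched others, not tested between sites, Pcsk1 was at 128 and 115 CPM in brain and 10.1 to 36.6 CPM elsewhere. The En1 list summed to 45.3 to 67.4 CPM in brain members, 2.37 to 4.97 in liver and 2.32 to 16.2 in subcutaneous members, and all 5 of its tested genes were higher in brain in both comparisons. En1 itself was also higher in the matched others of brain, at 78.2 and 73.1 CPM against 2.37 to 32.8 CPM elsewhere. Interferon genes were higher in brain for 12 of 18 tested genes against liver and 11 of 18 against subcutaneous members. Among all genes tested 3.88% and 3.56% were higher in brain. The filter on low counts worked by site, so a gene could enter these tests through brain alone. Only 9 genes of the list were tested in members against matched others. These counts are therefore a description, and the part of host RNA in them was not tested. Ifi27 was at 94.8 and 95.7 CPM in brain and 10.2 to 24.4 CPM elsewhere (log2 fold change against subcutaneous 2.70 ± 0.20, edgeR adjusted p = 1.11e-05). The B-cell receptor gene Cd79a, a member of the host lymphocyte list, was at 45.3 and 26.2 CPM in brain members and 4.40 to 10.4 CPM elsewhere, while Ms4a1, another B-cell gene, had no UMI in members of any library.

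Lower in brain members were BC034090, Fbxo2 and the actin-associated Palld against liver, with log2 fold changes of -2.68 to -2.16. BC034090 was at 5.14 and 7.85 CPM in brain, 46.9, 42.4 and 34.6 in liver and 25.5, 31.9 and 36.8 in subcutaneous members. This was not particular to members: in matched others, not tested between sites, BC034090 was at 1.37 and 1.34 CPM in brain. It was at 23.5 to 26.4 CPM in liver others and 5.64 to 23.8 CPM in subcutaneous others. The call of Palld was lost against liver without either brain library (adjusted p = 0.0948 and 0.105). Against subcutaneous members the lower genes were Egln3, the adenylate kinase Ak4, BC034090 and Palld. Egln3, an oxygen-sensing hydroxylase induced by hypoxia, was at 8.68 and 8.07 CPM in brain, 28.1, 21.4 and 26.5 in liver and 37.0, 50.8 and 41.3 in subcutaneous members (log2 fold change -2.36 ± 0.21, edgeR adjusted p = 5.93e-05). Against subcutaneous members 12 of 19 hypoxia genes were lower in brain, where 2.12% of all genes were lower, and 6 of 19 were lower in liver, where 1.12% were. Palld lost its call against subcutaneous members without brain replicate 1 or 2 (adjusted p = 0.163 and 0.177) and without subcutaneous replicate 2 or 3 (0.0536 and 0.0591). Ak4 lost its call without brain replicate 2, and both lost theirs in thinned cells.

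Liver members had more transcripts of Tmprss4, Ifitm3, Bex4 and Cd164l2 than subcutaneous members and fewer of Cbln4, Mt1, Mt2 and Ffar4. Mt1, a metal-binding metallothionein, was at 404, 311 and 379 CPM in liver, 1459, 1243 and 1351 CPM in subcutaneous members, and 751 and 553 in brain members. The sites did not overlap (liver against subcutaneous -1.83 ± 0.14 on the log2 scale, edgeR adjusted p = 6.14e-05), and Mt2 had the same log2 fold change, -1.83 ± 0.17. Tmprss4, a membrane serine protease, was at 25.3, 33.4 and 24.1 CPM in liver and 7.06, 5.03 and 9.80 in subcutaneous members (1.99 ± 0.21, edgeR adjusted p = 0.00069). Ffar4, a fatty acid receptor, was at 10.4 to 12.1 CPM in liver and 37.7 to 42.6 CPM in subcutaneous members (-1.73 ± 0.12, edgeR adjusted p = 2.99e-05). Ifitm3 lost its call with no filter on low genes (adjusted p = 0.0525) and without liver replicate 1 or 2 or subcutaneous replicate 3 (adjusted p = 0.083, 0.0619 and 0.0762).

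**Figure D5:**
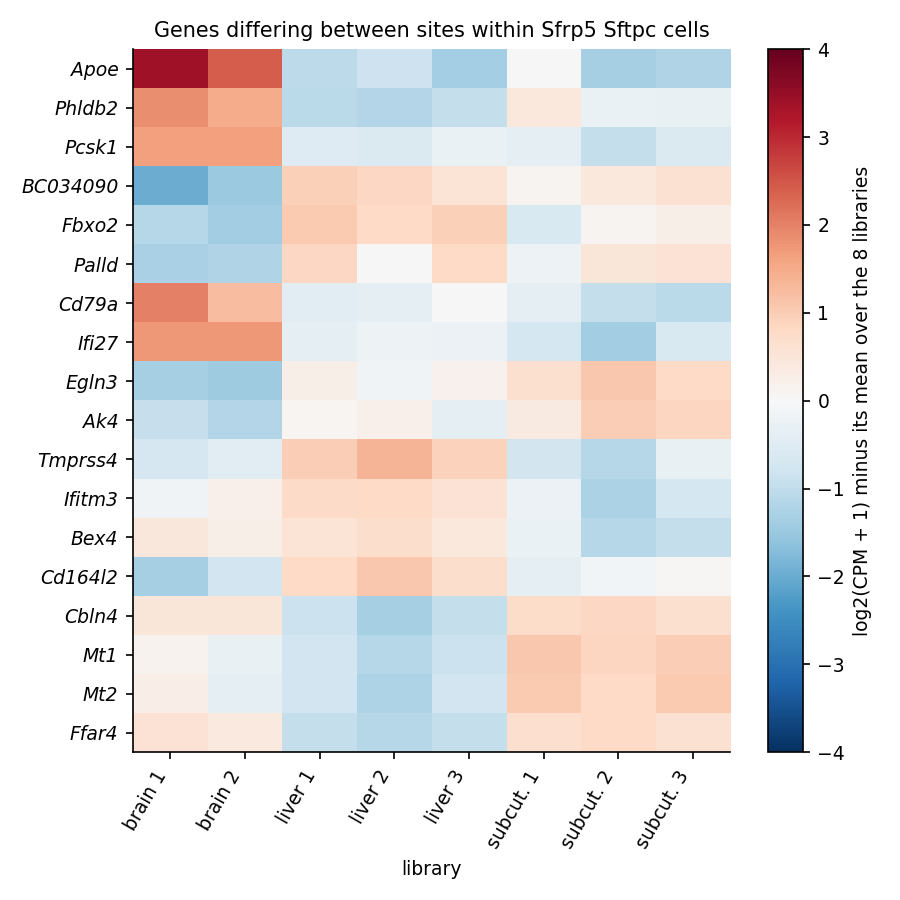
Levels of the genes named in the site comparisons, within Sfrp5 Sftpc cells only; colour is log2(CPM + 1) minus its mean over the 8 libraries, with red above and blue below that mean. Apoe, Phldb2, Pcsk1, Cd79a and Ifi27 are highest in the 2 brain libraries, and Mt1, Mt2 and Cbln4 are highest in the 3 subcutaneous libraries.

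The distance between members and matched others itself differed between sites. The matched others were not alike in each library: 9.88% to 39.7% of them had a Sfrp5 UMI and 29.8% to 55.6% a Sftpc UMI. In liver replicate 1, 1056 of 1258 gated others served as partners, against 294 of 1384 in brain replicate 1. The part of this in the counts below was not tested. In a test of the interaction of class and site, 1731 of 11544 genes passed for brain against liver (15.0%), 875 with a higher difference in brain (7.58%) and 856 with a lower one (7.42%). For brain against subcutaneous 1515 passed (13.1%), 710 higher (6.15%) and 805 lower (6.97%). For liver against subcutaneous 158 passed (1.37%), 96 higher in liver (0.832%) and 62 lower (0.537%). Against all other tumour cells, without matching, the counts were 665, 440 and 366. Brain against liver gave 991 and 617 without brain replicate 1 or 2. Brain against subcutaneous gave 741 and 500 without brain replicate 1 or 2, and 2424 and 999 without subcutaneous replicate 1 or 2. Liver against subcutaneous gave 69, 72 and 60 without liver replicate 1, 2 or 3, and 536, 60 and 99 without subcutaneous replicate 1, 2 or 3. Slc2a1, a glucose transporter induced by hypoxia, was at 29.8 against 107 and 31.3 against 101 CPM in brain. In liver it was at 21.3 against 23.2, 24.6 against 26.7 and 28.3 against 32.8 CPM. In subcutaneous libraries it was at 26.5 against 57.8, 48.7 against 95.5 and 40.9 against 76.1 CPM. Members were lower in all 8, and the members-minus-others difference was more negative in brain than in liver (-1.56 ± 0.12 on the log2 scale, edgeR adjusted p = 1.62e-08). The neuronal RNA Snhg11 was at 189 against 79.9 and 189 against 81.8 CPM in brain, while members and others differed by at most 0.30 on the log2 scale in the other 6 libraries (0.98 ± 0.08 for brain against liver, edgeR adjusted p = 1.62e-08).

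The hypoxia genes separated subcutaneous tumours from liver tumours. For 16 of 18 tested genes the shortfall of members was larger in subcutaneous tumours than in liver (edgeR interaction test, where 0.832% of all genes differed in that direction). For 13 of 18 it was larger than in brain, where 6.15% of all genes differed in that direction (1 gene went the opposite way). For brain against liver 6 of 18 had a higher difference in brain and 2 a lower one. Among all genes 7.58% and 7.42% did so. Higd1a, a mitochondrial protein induced by hypoxia, was at 274 against 541, 296 against 578 and 252 against 476 CPM in subcutaneous libraries. In liver it was at 203 against 265, 171 against 229 and 151 against 190 CPM, and in brain at 138 against 156 and 142 against 157 CPM. Members were lower in each library, and the liver and subcutaneous differences differed by 0.53 ± 0.05 on the log2 scale (edgeR adjusted p = 2.49e-07). Fam162a and Ddit4 differed between liver and subcutaneous tumours by 0.62 ± 0.05 and 0.71 ± 0.06. Ddit4 was lower in members of the 3 subcutaneous libraries and higher in members of both brain libraries (113 against 82.3 and 89.8 against 66.1 CPM).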

How the data were processed

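The authors deposited 1 matrix of whole-number UMI counts per library, in the format of Cell Ranger 3.0.0 per the file headers; the submitters' processing notes name Cell Ranger, STAR and mm10. The UMI totals of the libraries were 27140735 to 63049542, and counting limits genes near 1 CPM most in brain replicate 1. Members, gene lists and tests were chosen with earlier results of these data known.

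UMIs were summed per library and class and tested in R 4.3.3 with edgeR 4.0.16 (TMM, filterByExpr, robust quasi-likelihood F test, Benjamini-Hochberg adjustment over all genes tested; 1 model for members against matched others with 7 residual degrees of freedom and a biological coefficient of variation of 7.51%, 1 for sites within members with 5 and 11.8%). The interaction model had 5 residual degrees of freedom and a biological coefficient of variation of 3.29%. Standard errors are the log2 fold change divided by the root of F. Matching ran without replacement from the deepest member down; the limit of 10% was set after the cells were counted, because members exceed the other gated cells in liver replicates 1 and 2, and left 59.3% and 63.9% of members matched there. Shares were tested by exact permutation in Python 3.11.15 with scipy 1.17.1. The steps were tested on simulated data. Whether the labels' replicate numbers pair the samples is not known. Same-numbered libraries had correlations of -0.26 to 0.28 and differently numbered ones -0.36 to 0.32. With 2 or 3 libraries per site these correlations cannot decide pairing.

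Named genes were, for members, the 12 per direction with the largest change among those past the threshold with at least 10 CPM, of 1 direction in every library and also past it against all other tumour cells; for sites, the 4 per direction with no overlap; for interactions, the 3 per direction with the lowest p. List examples were those past the threshold with the lowest p and the highest others. Some genes that these rules name are not reported here. Alternatives covered other partners, depth, filters, tools, the blocks and each library left out; 3 of them, chosen after seeing the data, were wider matching, the 5 libraries rich in members, and gated cells as the denominator. Positions came from GENCODE M21, where 21952 of 22056 genes had one.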

Additional observations from a re-analysis of the deposited data

Results flagged for a closer look

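The difference between Sfrp5 Sftpc cells and matched others was not the same in each site for 1731 genes (brain against liver), 1515 genes (brain against subcutaneous) and 158 genes (liver against subcutaneous), by the interaction test of edgeR. On the log2 scale the brain difference exceeded the liver difference for Snhg11 (0.98), F11r (1.30) and Cd24a (0.58) and lay below it for Rpl22l1 (-0.91), Slc2a1 (-1.56) and H2-D1 (-0.86). Against subcutaneous it was above for Snhg11 (1.19), Ddit4 (1.19) and Espn (1.74) and below for Rpl22l1 (-0.88), H2-D1 (-0.81) and Dnaja2 (-0.77). The liver difference exceeded the subcutaneous difference for Ddit4 (0.71), Fam162a (0.62) and Higd1a (0.53) and lay below it for H2-Aa (-3.49), H2-Ab1 (-2.66) and Cd24a (-0.27).

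F11r, a junction protein, was at 112 against 49.2 and 102 against 36.8 CPM in brain, and members and others differed by at most 0.25 on the log2 scale in the other 6 libraries. Espn, an actin-bundling protein, was higher in members in brain (67.5 against 31.4 and 52.8 against 28.0 CPM) and lower in subcutaneous libraries (75.5 against 127, 79.9 against 142 and 73.7 against 118 CPM). Rpl22l1, a ribosomal protein paralog, was at 545 against 1286 CPM in brain replicate 1 and at 714 against 835 in liver replicate 1. The class II genes H2-Aa and H2-Ab1 rest on subcutaneous replicate 1, with H2-Aa at 41.3 against 5.64 CPM there and at most 0.131 CPM in the other subcutaneous libraries; neither gene passed the filter on low counts without that library, liver replicate 2 or either brain library. The macrophage and microglia list was at 61.6 CPM in members and 51.1 in others of that library, and its part in these 2 genes was not tested.

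Nr0b2 in brain replicate 2 stood apart from the other libraries, with a log2(CPM + 1) difference of 1.69 between members and others against 0.38 to 0.99 elsewhere. It was 1 of 25 groups of 8 values examined, where chance gives about 1 in 20.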

How the results depend on the processing

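Members against others gave 1374 genes in thinned cells, 212 in cells without G2/M UMIs, 2043 with UMIs divided into 2 parts and 603 without the library as a block, against 3171, and 2475 to 3048 with each library left out. Without brain replicates 1 and 2 and subcutaneous replicate 1 it gave 3496. The S phase list, at a cut that most cells passed, gave a higher share in members (3.12 points). For G2/M the share was lower, and leaving out libraries gave -16.0 to -14.3 points. The liver share minus the mean of the 2 other sites was 11.3 points, and 10.3 to 12.3 with libraries left out. In thinned cells brain against liver gave 112 genes, brain against subcutaneous 103 and liver against subcutaneous 105. With libraries left out these gave 227 to 1044, 127 to 1466 and 49 to 446. Interaction counts were 617 to 2410, 500 to 2424 and 60 to 536 with libraries left out, and 665, 440 and 366 against all other tumour cells, where H2-Ab1 reversed (0.19). With the replicate block the site counts were 1038, 874 and 484, and Palld against subcutaneous and Ifitm3 lost their calls. Since it is not known whether the numbers pair the libraries, this says nothing on the size of effects. Of 559 alternatives for single named genes in members against others, 532 kept direction and call, 27 lost the call and none reversed. The cause of these changes was not tested, and some of the alternatives also held fewer cells or samples. Depth limits low genes most in brain, where members held 3111661 and 4585200 UMIs.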
